A study of Homo sapiens with 4 samples.

Results

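The nuclear genes of mitochondrial complex I were compared between LASCPC-01 cells given PBS and LASCPC-01 cells given fluoxetine. Members were taken by symbol, as every listed gene named NDUF with A, B, C, S or V and a number, which left out the NDUFAF assembly factors. The rule found 38 of the 16376 listed genes, of which 36 encode subunits of complex I. The other 2 were NDUFA4, whose protein is now placed in complex IV, and its paralog NDUFA4L2, so both were described apart. LASCPC-01 is 1 established NEPC (neuroendocrine prostate cancer) cell line, made with NMYC and activated AKT1, which both groups therefore share. Fluoxetine is an antidepressant that blocks serotonin reuptake. RNA of 2 PBS samples and 2 fluoxetine samples was sequenced, and the labels give day 3 for all of them. No dose stands in the labels, and the dose and time in the study's text are 5 µM and 48 h. The labels do not say that the 2 samples of a group came from separate cultures, so p-values here measure the spread between these libraries, which may be technical.

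Complex I, or NADH:ubiquinone oxidoreductase, passes electrons from NADH to ubiquinone and pumps protons across the inner mitochondrial membrane. Its matrix arm holds the NADH-oxidising N module and the ubiquinone-reducing Q module, whose core subunits carry the flavin and the iron-sulphur clusters. Its membrane arm holds the proton pumps, whose cores are encoded by mitochondrial DNA, and many small accessory subunits encoded in the nucleus surround both arms. Tumour cells differ in how far they rely on this complex, and hypoxia is known to change the subunits and paralogs in use through HIF.

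The values were FPKM, that is, reads on a gene divided by its length and by the reads of the library. The depths behind them were 32873603 to 34831389 reads per library, estimated from the FPKM steps and shared by more genes than any other value, and the 36 subunits held 242 to 9897 reads each in a library. NCAM1 (44.3 to 52.0 FPKM) and MYCN (323 to 387 FPKM) were present in every library, as were KRT8 and EPCAM. The neuroendocrine markers CHGA and CHGB were at most 0.0886 FPKM, and SYP was at most 0.629 FPKM. The summed FPKM of the 6 fibroblast, 4 leukocyte and 3 endothelial markers were at most 3.14, 3.99 and 0.218. The libraries were not alike in their relation of FPKM to gene length. Across 12642 genes, a gene's deviation from its mean over the libraries had a Pearson r with log2 length of 0.058 in PBS replicate 1, 0.214 in PBS replicate 2, -0.302 in fluoxetine replicate 1 and 0.036 in fluoxetine replicate 2.

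Subunit genes are short and active, and several carry the motifs of factors known to drive genes of the respiratory chain. RefSeq promoters (250 bases before to 50 after the start, GRCh38.p14) were found for 31 of the 36 subunits. The NRF1 motif, searched on both strands like the others below and read as GCGC, a free base, T and GCGC, was in 6 of them (19.4%), against 6.28% of all 27305 promoters and 11.5% of the 10250 promoters of tested genes. The YY1 motif AAGATGGC was in 6 (19.4%), against 3.03% and 5.38%. The ETS motif CCGGAAG was in 5 (16.1%), against 10.7% and 19.4%. CCAAT was in 8 (25.8%, against 35.7% and 37.0%), and ACGTG, the core of the HIF site, in 9 (29%, against 21.6% and 26.5%). Matches are a description of letters and not of bound sites. The 3 stretches below lie just upstream of the annotated gene and show how such a motif sits in a subunit promoter, with the NRF1 or ETS letters in capitals. Each is printed on the strand of the gene, and in NDUFB4 the capitals are the NRF1 motif read on the opposite strand.
NDUFA9, plus strand, chr12:4648994-4649094, NRF1 motif: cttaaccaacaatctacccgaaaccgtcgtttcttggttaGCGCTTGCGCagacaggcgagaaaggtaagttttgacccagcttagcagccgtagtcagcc
NDUFB4, plus strand, chr3:120596216-120596308, NRF1 motif: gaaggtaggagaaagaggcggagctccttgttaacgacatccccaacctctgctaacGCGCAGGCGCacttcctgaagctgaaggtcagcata
NDUFB7, minus strand, chr19:14572067-14572186, ETS motif: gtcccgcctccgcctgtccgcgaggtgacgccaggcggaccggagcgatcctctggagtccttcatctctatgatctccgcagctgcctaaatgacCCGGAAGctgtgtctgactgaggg

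The subunits were expressed at very unequal FPKM although they are built into 1 complex. NDUFS5, a membrane arm subunit on the side of the intermembrane space, had the highest level with 525 and 524 FPKM under PBS and 579 and 531 FPKM under fluoxetine. NDUFC2, a membrane arm subunit needed for assembly, had the lowest with 4.64 and 3.21 FPKM under PBS and 5.31 and 3.79 FPKM under fluoxetine. Their mean FPKM of 539.7 and 4.24 differed 127-fold, while the mean reads on the subunits differed 28.9-fold at most. NDUFC2 shares 16.3% of its exon bases with the readthrough gene NDUFC2-KCTD14 on the same strand, and the part of this overlap in its level was not tested. The median subunit stood at 71.5 FPKM, against 7.94 FPKM for all 12663 genes tested.

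The order of the FPKM went with gene length. The length behind the FPKM ran from 317 bases for NDUFB1 to 11774 bases for NDUFS1, with a median of 1264 bases against 3876 bases for all genes, and 27 of the 36 subunits (75.0%) were shorter than 2000 bases, against 18.4% of all genes. Across the 36 subunits, log2 mean FPKM had a Pearson r of -0.78 with log2 length, and log2 mean reads had an r of 0.03. These are correlations across genes of the same 4 libraries and not across replicates. FPKM are reads divided by this same length, so with reads that did not go with length a negative r follows from the division. NDUFS1 shows the difference between both scales, with 13.4 to 14.8 FPKM from 5473 to 5852 reads.

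**Figure D1:**
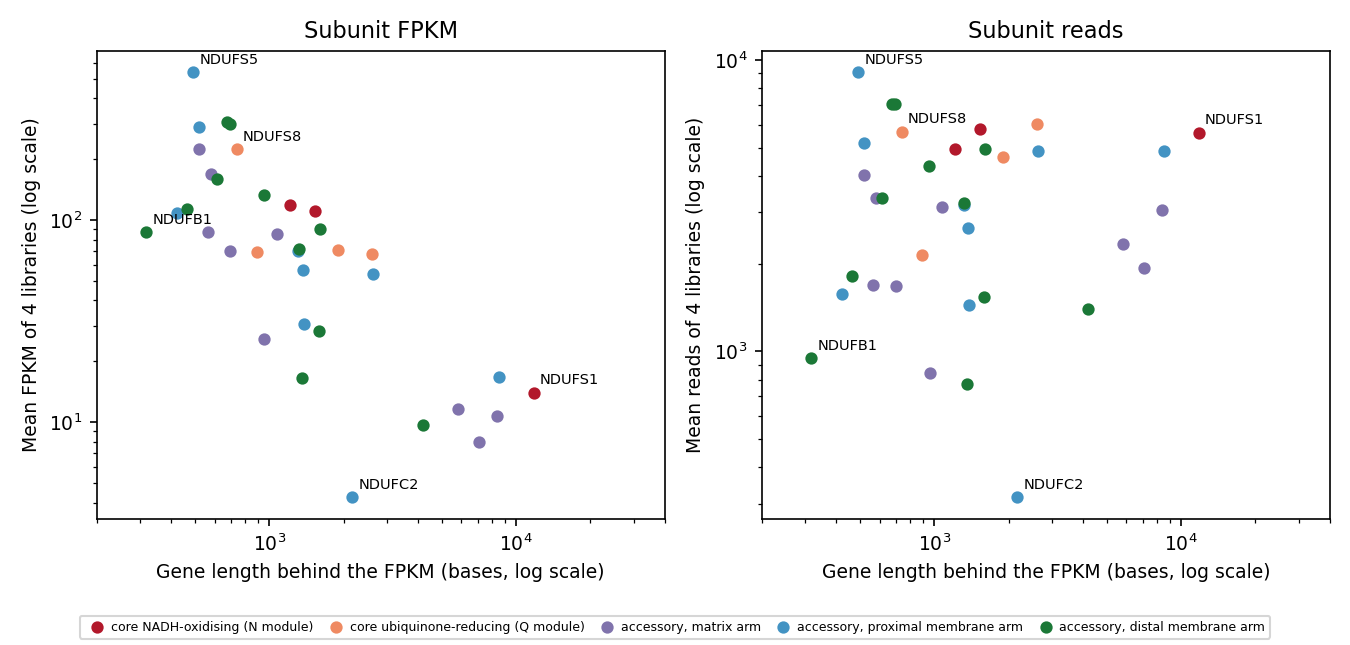
Mean FPKM (left) and mean recovered reads (right) of the 36 subunits over 4 libraries, on log axes, against the gene length behind the FPKM in bases, with each point a subunit coloured by its place in the complex. FPKM, which are reads divided by this length, fall along the length axis (r = -0.78) and reads do not (r = 0.03). NDUFS5 and NDUFC2 are the ends of the FPKM range.

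None of the 36 subunits passed the test between fluoxetine and PBS, and the single member that did was NDUFA4L2, which was lower. All 38 members passed the filter of a mean FPKM of at least 0.1. With limma on log2(FPKM + 0.1) and Benjamini-Hochberg adjustment, a scale on which changes of low genes come out too small, 27 of the 12663 genes tested were lower at an adjusted p under 0.05 (0.213%) and 3 were higher (0.0237%). Without adjustment, 6 subunits (16.7%) had a p under 0.05, against 8.51% of all genes, and adjusted p-values of the subunits ran from 0.396 to 0.999. By limma voom on the recovered reads 8 subunits (22.2%) had an unadjusted p under 0.05, against 10.7% of all genes, and again none passed after adjustment. For 1 gene, the smallest two-sided p of an exact permutation test is 0.333 with 2 libraries a group.

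The subunits leaned to slightly higher values under fluoxetine, by about as much as the PBS libraries differed from each other. The log2 fold change was above 0 for 31 of 36 subunits, against 5507 of the 12663 genes, and its median was 0.12, against -0.02 for all genes. Both fluoxetine libraries lay above both PBS libraries for 17 subunits (47.2%, against 16.7% of all genes), and both lay below for 0 subunits (against 24.8% of all genes). Within PBS, 32 of 36 subunits were lower in replicate 2 than in replicate 1, by a median of 0.13 on the log2 scale. PBS replicate 2 was the lowest library for 29 subunits (80.6%, against 24.4% of all genes), and fluoxetine replicate 1 was the highest for 28 (77.8%, against 26.9%).

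**Figure D2:**
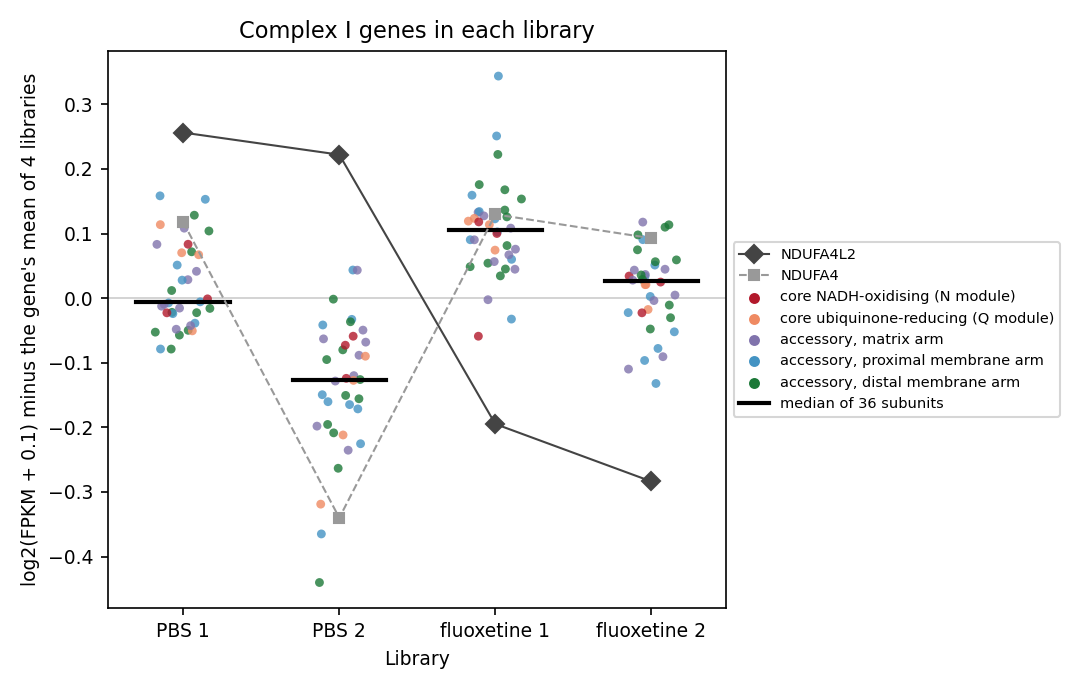
Deviation of log2(FPKM + 0.1) of each complex I gene from its mean over the 4 libraries, by library, with each point a subunit coloured by its place and black bars at the median of the 36 subunits. The medians were -0.01 and -0.13 in PBS replicates 1 and 2 and 0.11 and 0.03 in fluoxetine replicates 1 and 2, and NDUFA4L2 moves the other way.

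The size of the lean, but not the sign of its median, depended on single libraries. Without PBS replicate 2 the subunit median was 0.05, and without fluoxetine replicate 1 it was 0.07, whereas it was 0.17 without PBS replicate 1 and 0.16 without fluoxetine replicate 2. RNA from bulk cultures cannot tell a change of RNA per cell from a change in which cells are present.

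Short genes as a whole leaned the same way in these libraries. Over all genes, the median log2 fold change was 0.12 under 1000 bases (543 genes), 0.06 from 1000 to below 2000 bases, 0.00 from 2000 to below 4000 bases and -0.07 from 4000 bases on. The subunits in these classes had medians of 0.14 (16 subunits), 0.12 (11), 0.06 (3) and -0.01 (6). In the same classes, both fluoxetine libraries lay above both PBS libraries for 35.9%, 28.2%, 20.4% and 9.17% of all genes. For the subunits these shares were 68.8%, 45.5%, 0.00% and 16.7%. Across the 36 subunits the log2 fold change had a Pearson r of -0.51 and a Spearman rho of -0.41 with log2 length, and an r of 0.41 with GC content. The 6 subunits with an unadjusted p under 0.05, which were NDUFB11, NDUFA13, NDUFA2, NDUFB1, NDUFB8 and NDUFB2, were each shorter than 1000 bases.

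With the GC trend removed from each library, the subunit median was 0.11. With the trend on gene length removed instead, it was 0.04, against -0.02 for all genes. The log2 fold change was then above 0 for 28 of 36 subunits, against 5598 of the 12663 genes. Both fluoxetine libraries then lay above both PBS libraries for 7 subunits (19.4%), against 16.0% of all genes. These 7, which were NDUFV1, NDUFV3, NDUFA2, NDUFA13, NDUFB8, NDUFB9 and NDUFB11, were among the 17 that did so before. Below PBS in both fluoxetine libraries were 3 subunits, NDUFA1, NDUFA12 and NDUFS4, against 23.4% of all genes. After this step the subunit medians were 0.00 and -0.03 in the PBS libraries and 0.02 and 0.01 in the fluoxetine ones. In limma's test 0 of 36 subunits passed, and 2 (5.56%, against 7.79% of all genes) had an unadjusted p under 0.05.

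The core subunits of the N module take electrons from NADH. NDUFV1, which binds NADH and the flavin, had 110.0 and 101 FPKM under PBS and 118 and 112 FPKM under fluoxetine. NDUFV2, its iron-sulphur partner, had 117 and 113 FPKM under PBS and 129 and 117 FPKM under fluoxetine. NDUFS1, the largest core subunit, had 14.8 and 13.4 FPKM under PBS and 13.4 and 14.3 FPKM under fluoxetine. The groups did not overlap for NDUFV1 and overlapped for the other two, and the log2 fold changes were 0.12 (SE 0.08), 0.10 (SE 0.08) and -0.03 (SE 0.09), with adjusted p-values by limma of 0.63 to 0.952. NDUFV2 shares 28.4% of its exon bases with AP005263.1 on its own strand. With the length trend removed NDUFV1 was at 0.05, NDUFV2 at 0.00 and NDUFS1, with its sign turned, at 0.08.

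The core subunits of the Q module hand electrons to ubiquinone. NDUFS7, which carries the last iron-sulphur cluster before ubiquinone, had 76.7 and 56.8 FPKM under PBS and 76.7 and 75.5 FPKM under fluoxetine. PBS replicate 2 was the low library, and PBS replicate 1 reached the fluoxetine values. NDUFS3, a scaffold of the module, had 72.7 and 59.9 FPKM under PBS and 75.6 and 70.4 FPKM under fluoxetine. NDUFS8, which holds iron-sulphur clusters, had 216 and 210.2 FPKM under PBS and 243 and 227 FPKM under fluoxetine, with groups that did not overlap, unlike those of NDUFS7 and NDUFS3. The log2 fold changes were 0.21 for NDUFS7, 0.14 for NDUFS3 and 0.14 for NDUFS8. Their SE were 0.08 to 0.11, and the adjusted p-values by limma were 0.613 to 0.638. Without PBS replicate 2, the value of NDUFS7 was -0.01 and that of NDUFS3 was 0.0055, and with the length trend removed NDUFS3 was at 0.03 and NDUFS8 at 0.01. NDUFS7 also shares 49.1% of its exon bases with antisense genes, and the strand setting of the counting is not given in the sources used here.

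Accessory subunits of the matrix arm had a median log2 fold change of 0.10 over 9 genes, and for 4 of them (NDUFA2, NDUFA7, NDUFS6 and NDUFV3, or 44.4%, against 16.7% of all genes) both fluoxetine libraries lay above PBS. With the length trend removed, the median of this arm was -0.009. Both fluoxetine libraries then lay above PBS for 2 of the 9 (22.2%, against 16.0% of all genes) and below for 2 (against 23.4%). NDUFA2, a small subunit of the N module with a thioredoxin-like fold, had 69.2 and 59.4 FPKM under PBS and 76.7 and 75.9 FPKM under fluoxetine. Its means were 64.3 ± 6.89 and 76.3 ± 0.534 FPKM (SD, n = 2), a log2 fold change of 0.25 (SE 0.08, limma adjusted p = 0.464), which was 0.12 with the length trend removed and 0.14 without PBS replicate 2. NDUFS4, a subunit often mutated in Leigh syndrome, had 27.2 and 24.8 FPKM under PBS and 26.7 and 24.1 FPKM under fluoxetine. NDUFA5 of the Q module had 7.94 and 8.24 FPKM under PBS and 8.43 and 7.40 FPKM under fluoxetine. Both overlapped between the groups, at log2 fold changes of -0.03 each. The other 6, which were NDUFA6, NDUFA7, NDUFA9, NDUFA12, NDUFV3 and the zinc-binding NDUFS6, had log2 fold changes between 0.03 and 0.14. NDUFA5 has 12 annotated pseudogenes by name, the most among the subunits along with NDUFB4, and reads of such copies may not have been told apart.

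Accessory subunits of the proximal membrane arm had a median of 0.14 over 9 genes, and 3 of them (NDUFA8, NDUFA13 and NDUFS5, or 33.3%, against 16.7% of all genes) did not overlap, with fluoxetine above. With the length trend removed, the median of this arm was 0.05. Both fluoxetine libraries then lay above PBS for 1 of the 9 (11.1%, against 16.0% of all genes) and below for 1 (against 23.4%). NDUFA13, also known as GRIM-19, had 273 and 256 FPKM under PBS and 322 and 307 FPKM under fluoxetine. Its means were 264 ± 12.5 and 315 ± 10.7 FPKM (SD, n = 2), a log2 fold change of 0.25 (SE 0.08, limma adjusted p = 0.421), which was 0.10 with the length trend removed. It shares 21.0% of its exon bases with AC011448.1 and YJEFN3 on the same strand. NDUFA10, a subunit related to nucleoside kinases, had 16.6 and 17.2 FPKM under PBS and 17.4 and 15.6 FPKM under fluoxetine, at a log2 fold change of -0.03 with overlapping groups. NDUFA1, NDUFA3, NDUFA8, NDUFA11 and NDUFC1 had log2 fold changes between 0.00 and 0.18, and NDUFA1 was at -0.17 with the length trend removed. For NDUFS5 and NDUFC2, the ends of the FPKM range, the log2 fold changes were 0.08 (SE 0.09) and 0.21 (SE 0.18). The value of NDUFS5 was -0.08 with the length trend removed, and that of NDUFC2 was -0.05 without PBS replicate 2 and -0.03 without fluoxetine replicate 1.

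Accessory subunits of the distal membrane arm had a median of 0.13 over 11 genes. Of these, 8 (72.7%, against 16.7% of all genes) did not overlap between the groups, all with fluoxetine above. The median length in this arm was 951 bases, and among all genes under 1000 bases the share with fluoxetine above was 35.9%. NDUFB2, a small subunit with a single membrane helix, had 120.2 and 82.4 FPKM under PBS and 130.5 and 121 FPKM under fluoxetine. PBS replicate 2 stood far below the other libraries, and the log2 fold change of 0.34 (SE 0.13, limma adjusted p = 0.536) was 0.07 without it. NDUFB11, an X-linked subunit, had 156 and 132 FPKM under PBS and 179 and 171 FPKM under fluoxetine. Its log2 fold change was 0.29 (SE 0.09, adjusted p = 0.396), the lowest adjusted p among the subunits, and it was 0.15 with the length trend removed and 0.17 without PBS replicate 2. NDUFB8, a subunit whose protein level is often read as a sign of assembled complex I, had 130.3 and 114 FPKM under PBS and 148 and 137 FPKM under fluoxetine, a log2 fold change of 0.22 (SE 0.08, adjusted p = 0.532). This was 0.11 with the length trend removed and 0.13 without PBS replicate 2. NDUFB5 had 10.6 and 8.87 FPKM under PBS and 10 and 9.37 FPKM under fluoxetine, and its fold change was nil on this scale (-0.001). The other 7 lay between 0.05 for NDUFB10 and 0.21 for NDUFB1, the shortest of the subunits, whose value was 0.03 with the length trend removed. NDUFB2, NDUFB8 and NDUFB11 share 35.1%, 16.3% and 44.9% of their exon bases with antisense genes, and NDUFB8 shares 33.8% with AL133352.1 on its own strand. With the length trend removed, the median of the distal arm was 0.04 and 3 of the 11 (27.3%, against 16.0% of all genes) did not overlap.

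**Figure D3:**
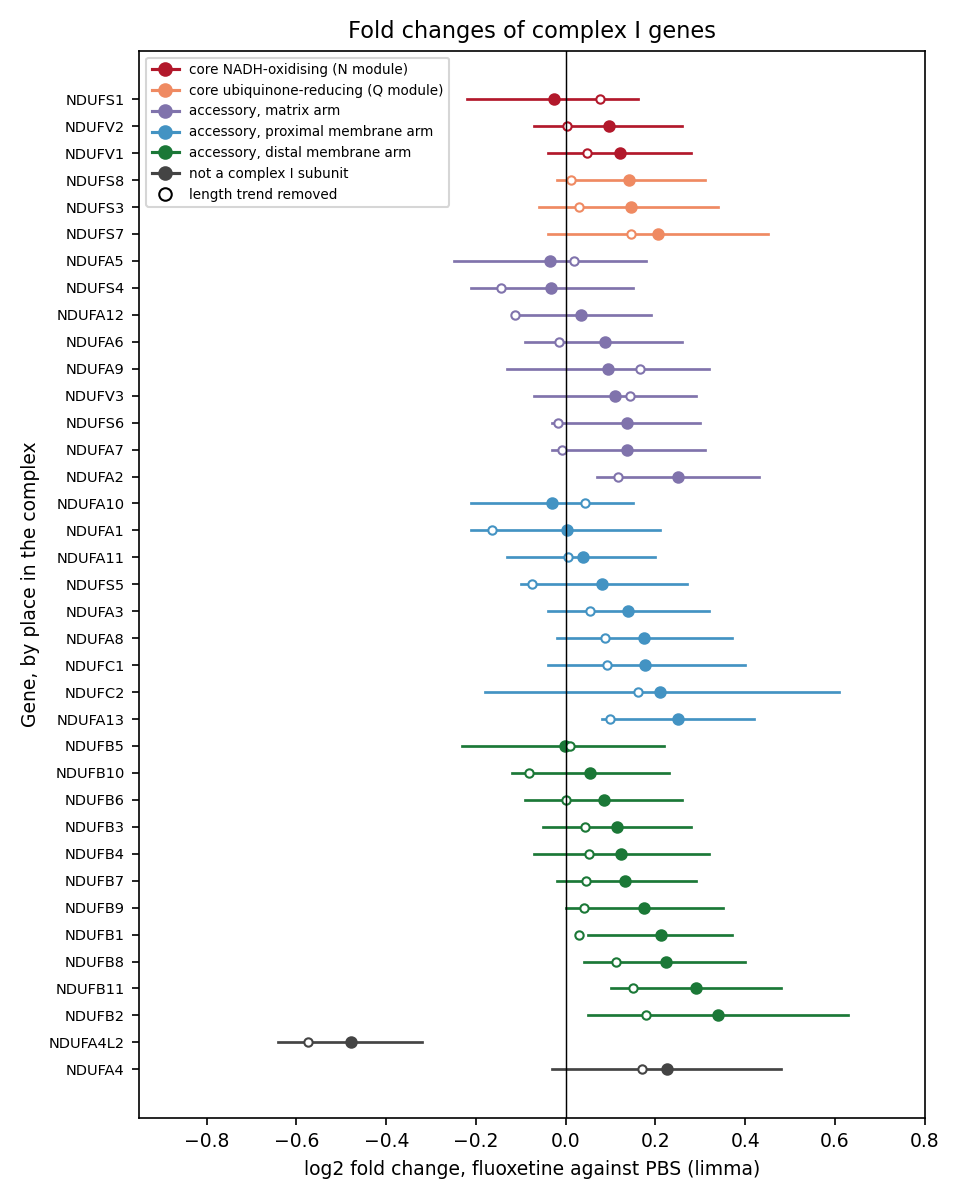
Log2 fold change of fluoxetine against PBS for 37 of the 38 complex I genes (filled points) with 95% confidence intervals from limma, and the value with the length trend removed (open points), by place in the complex. The intervals of the subunits run from -0.25 to 0.63, 6 of the 36 lie above 0 before adjustment, and the interval of NDUFA4L2 lies at -0.64 to -0.32.

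NDUFA4L2 fell under fluoxetine. NDUFA4L2 is a HIF-induced paralog of NDUFA4 known to lower complex I activity in hypoxia, and lies on chromosome 12 from 57234903 to 57240715 on the minus strand (GRCh38, GENCODE 29). It had 128 and 125 FPKM under PBS and 93.6 and 88.0 FPKM under fluoxetine, from 5004, 5157, 3871 and 3640 reads. Neither fluoxetine library reached the lower of the PBS values, with means of 127 ± 2.29 and 90.8 ± 3.99 FPKM (SD, n = 2). The log2 fold change was -0.48 (SE 0.07, 95% interval -0.64 to -0.32, limma adjusted p = 0.0178), and -0.57 with the length trend removed. The adjusted p ran from 0.000166 to 0.61 over the alternatives. It was past 0.05 with no filter on low genes (0.61), without the variance trend (0.385), and without PBS replicate 1 (0.245), PBS replicate 2 (0.405), fluoxetine replicate 1 (0.103) or fluoxetine replicate 2 (0.194), where the log2 fold change stayed between -0.52 and -0.43.

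NDUFA4, on chromosome 7 from 10931951 to 10940256 on the minus strand, did not pass the test. It had 118 and 85.9 FPKM under PBS and 119 and 116 FPKM under fluoxetine, so that PBS replicate 2 was low and the other libraries alike, and its log2 fold change was 0.23 (SE 0.12, limma adjusted p = 0.603). The log2 ratio of NDUFA4L2 to NDUFA4, on FPKM and so per length, was 0.12 and 0.54 in the PBS libraries and -0.34 and -0.40 in the fluoxetine libraries. NDUFA4L2 was thus above NDUFA4 in both PBS libraries and below it in both fluoxetine libraries, a difference of -0.71 with p = 0.333 in the two-sided exact permutation test, the smallest it can give. Over the median of the 36 subunits, the log2 ratio of NDUFA4L2 was 0.78 and 0.95 under PBS and 0.29 and 0.21 under fluoxetine.

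Other HIF targets that act on mitochondria were set beside NDUFA4L2. Of this list of 7 genes, 6 were listed, their median log2 fold change was -0.39, and 2 passed the test, NDUFA4L2 itself and BNIP3, a mitophagy receptor (0.213% of all genes were called lower). Both fluoxetine libraries lay below PBS for 4 of the 6 (66.7%, against 24.8% of all genes), NDUFA4L2 among them. The median and both counts thus include NDUFA4L2, the gene that the list was set beside. BNIP3 had 96.9 and 87.6 FPKM under PBS and 62.3 and 61.6 FPKM under fluoxetine, a log2 fold change of -0.57 (SE 0.07, limma adjusted p = 0.00704). PDK1 was at -0.42 (limma adjusted p = 0.187) and BNIP3L, a second mitophagy receptor, at -0.35 (limma adjusted p = 0.236). Neither passed, although their groups did not overlap. LONP1, a matrix protease, was at -0.00 and HIGD1A at 0.12, with overlapping groups. The list had been chosen with earlier results of these libraries known.

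**Figure D4:**
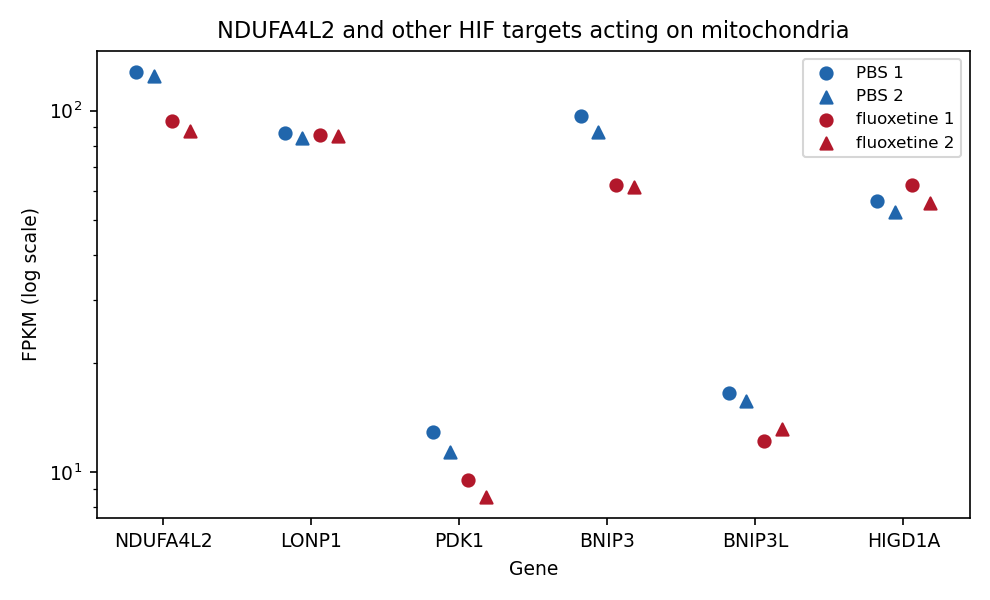
FPKM (log axis) of NDUFA4L2 and the 5 other listed HIF targets acting on mitochondria in each library, with PBS in blue, fluoxetine in red, circles for replicate 1 and triangles for replicate 2. NDUFA4L2, PDK1, BNIP3 and BNIP3L have both fluoxetine libraries below both PBS libraries, and LONP1 and HIGD1A overlap.

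The other nuclear genes of the respiratory chain had medians of like size to that of the complex I subunits, and none passed the test. The median log2 fold change was 0.08 for the 4 genes of complex II (SDHA 0.04 to SDHD 0.23), 0.12 for 9 of complex III (UQCRC2 -0.00 to UQCRQ 0.26), 0.17 for 10 of complex IV (COX5A 0.07 to COX6B1 0.25) and 0.13 for 15 of the ATP synthase (ATP5MG -0.06 to ATP5F1D 0.22). With the length trend removed these medians were 0.02, 0.05, 0.07 and 0.06, beside 0.04 for the complex I subunits. The 19 complex I assembly factors, which build the complex without staying in it, had a median of 0.09, from NUBPL at -0.13 and NDUFAF7 at -0.07 to FOXRED1 at 0.21 and NDUFAF4 at 0.25, and 0.05 with the length trend removed. NDUFAB1, the acyl carrier subunit that the symbol rule leaves out, had 98.9 and 81.6 FPKM under PBS and 111 and 95.5 FPKM under fluoxetine, a log2 fold change of 0.19 (limma adjusted p = 0.603). By the symbols searched, 0 of the 7 mitochondrially encoded ND subunits were among the listed genes, so they were not analysed here. The 11 regulators of mitochondrial biogenesis had a median of -0.02, from PPARGC1B at -0.14 and GABPA at -0.08 to ESRRA at 0.13 and NRF1 at 0.22, and none passed.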

How the data were processed

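The authors processed reads of 4 mRNA libraries with fastp, HISAT2, HTSeq and GRCh38, per the submitters' processing notes, with an annotation not given in the sources used here. The deposited values are FPKM of 16376 genes, and 0 columns were left unused. The labels name a stranded TruSeq kit and the study's methods a VAHTS kit, and the fluoxetine titles also read PP. Whole reads were solved from the FPKM of all 16080 genes above 0, within 0.004 of a whole number, with depths shared by 41 to 50 genes of GENCODE 29 exon length (24 to 34 for the next value). The implied length equals that of GENCODE 29 for 203 genes, so reads and lengths are estimates that rest on this depth. Lengths are those the reads imply, or GENCODE 29 lengths under 10 reads in a library.

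Fluoxetine was compared with PBS by limma 3.58.1 in R 4.3.3 (lmFit, then trended eBayes) on log2(FPKM + 0.1), in the 12663 genes that averaged 0.1 FPKM or more, and p-values were adjusted over all of these by Benjamini-Hochberg. Length and GC trends were removed per library with lowess (span 0.3). Alternatives were the pseudocount (1, 0.01), filter, scaling, moderation, replicate block, these trends and each library left out, and limma voom on the recovered reads was added after seeing the data. Members and lists were chosen with earlier results of these data known. Values in every library are given for the core subunits, NDUFA4, NDUFA4L2, the 5 subunits at either end of the fold changes, the highest and lowest in FPKM and any member called, and lists by counts, medians and the genes at their ends. Genes beside these were named for the result they touch. Results of some genes under these rules are not reported here.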

Additional observations from a re-analysis of the deposited data

How the results depend on the processing

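Fold changes of 19 named genes were recomputed under 19 alternatives. Of these 361 values 322 kept sign and side of the threshold, 6 of NDUFA4L2 lost the call, and 33 of 9 uncalled genes turned sign, none past the threshold. NDUFA4L2 was called in 13 alternatives. No subunit was called in any. The replicate numbers share only a number (correlation of deviations 0.0351), and the replicate block gave 47 lower and 17 higher genes, in place of 27 and 3, with NDUFA4L2 still called (adjusted p = 0.00227 by limma) and no other member. Genes called lower were 0 with no filter and without the variance trend (1175 and 933 genes at an unadjusted p under 0.05 by limma), 14 by quantile normalization and 48 by voom, where 4 were higher. In those first 2 settings 0 genes were higher and 0 members called. Genes called higher were 6 at a mean FPKM of at least 1, 5 by median centring, 1 with the length trend or both trends removed and 5 with the length trend removed and the replicate block. Leaving out a library gave 1 to 11 lower and 1 to 2 higher genes, 0 members called and a subunit median of 0.05 to 0.17. The subunit median was 0.042 with the length trend removed, with or without the block, and 0.039 with both trends removed, in place of 0.12. It was 0.075 when rescaled to TPM, 0.081 by quantile normalization and 0.149 by median centring. The cause was not tested.

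Uncalled log2 fold changes turned as follows. With the length trend removed, also under the block, NDUFS1 was 0.077, NDUFA5 0.019, NDUFA10 0.043, NDUFB5 0.0090 and NDUFS5 -0.076, and with both trends removed 0.086, 0.062, 0.039, 0.035 and -0.080. With the GC trend removed NDUFA5 was 0.038 and NDUFB5 0.048. By median centring NDUFS1 was 1.79e-05 and NDUFB5 0.025, by quantile normalization NDUFB5 was 0.030 and by voom 0.000979. With a library left out, the ranges were -0.10 to 0.045 for NDUFS1, -0.011 to 0.42 for NDUFS7, -0.0015 to 0.45 for NDUFA4, -0.13 to 0.059 for NDUFA5, -0.11 to 0.040 for NDUFS4, -0.11 to 0.048 for NDUFA10, -0.13 to 0.13 for NDUFB5 and -0.048 to 0.47 for NDUFC2. A group left with 1 library was assumed to vary like the other.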
